A study of Saccharomyces cerevisiae with 4 samples.

Results

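The RNA levels of 8 budding yeast genes that are induced by starvation, respiratory growth or stress were compared between cells lacking CHD1 and wild-type cells. The genes were RGI1, GPG1, YGP1, SPI1, HOR7, DDR2, RTC3 and MSC1, taken by name from the gene tables; they are 8 of 5816 genes counted. They had been picked from the same comparison of genotypes in these libraries, so their own differences are given as a description, without a test. There were 2 libraries of the CHD1 deletion and 2 of the wild type, both in the strain background BY4741. All cultures were grown in YPD, a rich glucose medium, at 30 °C with shaking and were collected in mid-log phase at an optical density between 0.6 and 0.8. Total RNA was extracted with hot acid phenol. CHD1 encodes a chromatin-remodelling ATPase that acts on nucleosomes of transcribed genes. The labels name no independent isolates, separate cultures or individual densities at harvest; p-values therefore measure the scatter among these libraries alone, part or all of which may be technical.

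In glucose-grown yeast, most genes of this kind are kept low by protein kinase A, which holds the zinc-finger activators Msn2 and Msn4 out of the nucleus. When glucose runs out or stress sets in, Msn2 and Msn4 bind the stress response element, and the Rim15-dependent activator Gis1 acts through the post-diauxic shift element. Respiratory genes are in addition raised by the Hap complex, whose limiting subunit is Hap4. Some genes of this kind are used as markers of the diauxic shift and of entry into stationary phase.

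Gene reads numbered 4117998 and 2597514 in deletion replicates 1 and 2, and 2145684 and 2824770 in wild-type replicates 1 and 2. CHD1 had 7 and 3 reads in the deletion libraries, against 211 and 396 in the wild-type libraries. Of 5488 genes tested with edgeR's quasi-likelihood test, 92 were higher (1.68%) and 168 lower (3.06%) in the deletion at an adjusted p under 0.05; the median log2 fold change was 0.0044. Scaling by total gene reads moved that median to 0.108 and gave 176 higher and 65 lower genes, and scaling by the authors' library constants gave 34 higher and 28 lower. Summed reads of 5 a-cell genes lay between 2405 and 5507 per library, and those of 4 alpha-cell genes between 37 and 109, in a background known as mating type a.

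The upstream sequences are shown as a description. No promoter sequence was read to choose the genes, but they are known as induced by starvation, respiratory growth or stress. Many genes of this kind are regulated through the stress response and post-diauxic shift elements. A share of matches above that of all promoters was therefore partly built in by the choice. Matches of CCCCT, the core of the stress response element, and of AGGGAT, a core of the post-diauxic shift element, were searched on both strands; a match of one is never a match of the other. Capitals mark these matches, which read AGGGG or ATCCCT where the motif lies on the other strand. Sequences run 5′ to 3′ along the strand of the gene, from the RefSeq genome R64, whose chromosomes are those of sacCer3. The first 3 lines lie farther from the start codon than the whole length of the transcript beyond its coding part; the others are shorter windows around matches nearer the start codon.
RGI1 (chrV:291771-291866, plus strand): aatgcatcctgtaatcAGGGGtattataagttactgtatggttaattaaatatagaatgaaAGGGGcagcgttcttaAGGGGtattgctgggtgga
SPI1 (chrV:468070-468130, plus strand): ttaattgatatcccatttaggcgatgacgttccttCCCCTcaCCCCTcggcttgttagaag
YGP1 (chrXIV:336100-336200, plus strand): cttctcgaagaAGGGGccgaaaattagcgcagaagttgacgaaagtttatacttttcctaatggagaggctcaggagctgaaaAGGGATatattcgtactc
RTC3 (chrVIII:280616-280644, plus strand): acgaCCCCTtatttagtcgaAGGGATcgc
HOR7 (chrXIII:774489-774517, plus strand): tatttgggtaagCCCCTttctgttttcgg
HOR7 (chrXIII:774546-774574, plus strand): aacatagtgataAGGGATgtaactttcga
DDR2 (chrXV:231987-232015, minus strand): tgttcttctaatCCCCTttctctcctaaa
DDR2 (chrXV:231942-231970, minus strand): tcttcttcttttCCCCTgtttccattttt
DDR2 (chrXV:231914-231942, minus strand): tgtcttttctcaCCCCTtatgggacatca
MSC1 (chrXIII:16856-16884, minus strand): ccttagAGGGGaagaataAGGGATctttg
MSC1 (chrXIII:16792-16820, minus strand): ggaggcggtgaaAGGGGatcgacagggta

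In the 250 bases before the start codon, CCCCT was present upstream of 4 of the 8 genes and of 18.9% of 5793 promoters. RGI1 and MSC1 had 2 matches each, DDR2 had 3 and RTC3 had 1. AGGGAT was present upstream of 5 of the 8, RTC3, YGP1, SPI1, HOR7 and MSC1, and of 7.91% of all promoters. In 500 bases, a window chosen after the data were in hand, CCCCT was found at 7 of the 8 and at 34.4% of 5792 promoters, with at least 2 matches at 6 of the 8 and at 8.32% of all. GPG1 had neither motif in that window. MSC1 had 2 CCCCT and 1 AGGGAT within 250 bases. Whether matches go with the size of the change among the 8 was not tested. The TATA box letters TATAAA occurred within 250 bases at 5 of the 8 and at 42.7% of all promoters. CCAAT, the core letters bound by the Hap complex, occurred at 2 of the 8, RTC3 and SPI1, and at 35.7% of all. Of the heat shock element cores, GAANNTTC occurred at 0 of the 8 (10.1% of all promoters) and TTCNNGAA at 1, SPI1 (11.2% of all).

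**Figure D1:**
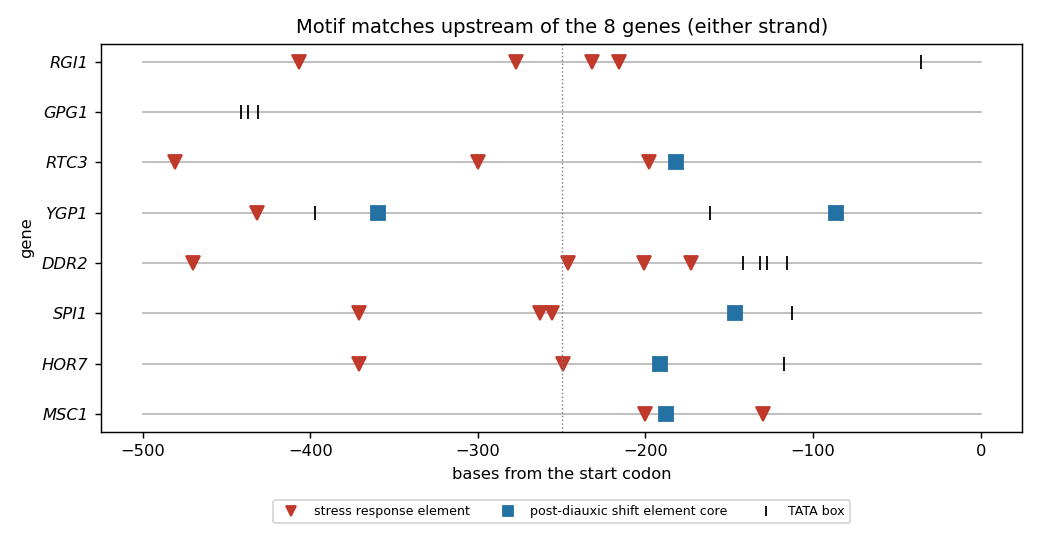
Positions of motif matches on either strand in the 500 bases before the start codon of each gene; the x axis is the distance from the start codon in bases and the dotted line marks 250 bases. Red triangles (stress response element) are found at 7 of the 8 genes, blue squares (post-diauxic shift element core) at 5, and GPG1 has neither.

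In bulk RNA, more cells in a given state and more RNA per cell cannot be told apart. Levels are given as CPM, reads per 1e6 gene reads after TMM scaling of the libraries, or as CPM per kb of the transcript length in the tables where genes are compared with each other. RGI1 (YER067W, chromosome V, 292066 to 292551), which is needed for normal energy metabolism in respiratory growth, had the highest fold change of the 8. It was counted 96 and 81 times in the deletion libraries and 12 and 29 times in the wild-type libraries. The levels were 22.3 and 30.3 CPM in the deletion, against 5.92 and 10.4 CPM in wild type. Both deletion values lay above both wild-type values, and wild-type replicate 1 was the lowest library. The log2 fold change was 1.59 ± 0.27 (standard error), or 3.0-fold. Leaving out wild-type replicate 2 gave 2.11 and leaving out replicate 1 gave 1.29, so the size rests partly on which wild-type library is used. The 12 reads of wild-type replicate 1 have an exact Poisson interval of 6.20 to 21.0 reads at 95% confidence, and the 29 reads of replicate 2 one of 19.4 to 41.6; these intervals cover counting error only.

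GPG1 (YGL121C, chromosome VII, 280777 to 281157), whose product was proposed as a gamma subunit of the glucose-sensing G protein of Gpa2, was also low in wild type. Its reads were 93 and 52 in the deletion libraries and 18 and 21 in the wild-type libraries. In CPM these were 21.6 and 19.4 in the deletion, against 8.88 and 7.55 in wild type. The groups were well apart, the lowest deletion value being 2.19 times the highest wild-type value, which was the widest separation among the 8. The log2 fold change was 1.35 ± 0.24 and lay between 1.23 and 1.46 when any 1 library was left out.

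YGP1 and SPI1 encode proteins of the cell surface. YGP1 (YNL160W, chromosome XIV, 336545 to 337609) encodes a secreted glycoprotein made when nutrients limit growth, and it had 115 and 112 CPM in the deletion libraries, against 46.9 and 58.3 CPM in the wild-type libraries. Its deletion replicates differed by 1.03 times, the closest agreement among the 8, and its log2 fold change of 1.10 ± 0.13 corresponds to 2.14-fold. SPI1 (YER150W, chromosome V, 468370 to 468816) encodes a GPI-anchored cell-wall protein that is induced by weak acids and at the diauxic shift. It had 51.7 and 41.5 CPM in the deletion, against 25.2 and 24.1 CPM in wild type. Here the wild-type libraries were close and deletion replicate 1 stood highest; the log2 fold change was 0.94 ± 0.17, and 0.75 without that replicate.

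HOR7 and DDR2 are paralogs that encode small hydrophobic proteins induced by osmotic and other stresses. HOR7 (YMR251W-A, chromosome XIII, 774752 to 774931) was counted 4372 and 2978 times in the deletion libraries and 1604 and 1696 times in the wild-type libraries. It had 1017 and 1112 CPM in the deletion, against 791 and 610.0 CPM in wild type. HOR7 ranked 80 by CPM per kb among the 5488 genes, so it was not low in these glucose-grown cells. The groups did not overlap, but the lowest deletion value was only 1.29 times the highest wild-type value. The log2 fold change was 0.61 ± 0.11, or 1.52-fold, and leaving out wild-type replicate 2 or replicate 1 gave 0.44 or 0.81. DDR2 (YOL052C-A, chromosome XV, 231570 to 231755) was counted 25 and 18 times in the deletion libraries and 7 times in each wild-type library. It had 5.82 and 6.72 CPM in the deletion, against 3.45 and 2.52 CPM in wild type, and ranked 5085 by CPM per kb among the 5488 genes. Its log2 fold change of 1.07 ± 0.39 had the widest standard error of the 8, and a count of 7 reads has a Poisson interval of 2.81 to 14.4. The pair therefore spans the range of abundance in the group, with 2117 ± 134 CPM per kb for HOR7 and 8.28 ± 0.847 for DDR2 in the deletion, and 1393 ± 255 and 3.94 ± 0.874 in wild type (SD, n = 2 each).

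The coding sequences of HOR7 and DDR2 were identical at 78.1% of 151 aligned bases. Their longest shared run is printed because a read that lies within it fits both genes equally. Reads outside the run may also be uncertain if mismatches were tolerated. The coding bases alone were aligned, while the transcript lengths extend beyond them by 323 bases for HOR7 and 571 for DDR2.
HOR7 and DDR2, coding bases 156 to 179 and 162 to 185: tggtgctttggcctttttgattta
This run has 24 bases. Neither the read length nor the handling of reads with several positions is stated in the labels. How many of the DDR2 reads could have come from HOR7 was not tested. The longest runs shared with other paralogs were 11 bases for RGI1 and RGI2, 17 for YGP1 and SPS100 and 15 for SPI1 and SED1. RGI2 had 4 and 6 reads in the deletion libraries and 2 in each wild-type library, and SPS100, a sporulation-specific wall gene, had 12 and 6 reads, against 4 and 6; both were too low for the test. SED1, a major wall protein gene related to SPI1, was at 296 and 285 CPM in the deletion and at 268 and 337 CPM in wild type. Its log2 fold change was -0.06 ± 0.11 (edgeR adjusted p = 0.816), and the groups overlapped.

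RTC3 (YHR087W, chromosome VIII, 280820 to 281155) encodes a protein linked to RNA metabolism that resembles part of the human ribosome-assembly factor SBDS. It had 50.5 and 67.6 CPM in the deletion libraries, against 28.1 and 20.1 CPM in the wild-type libraries. Deletion replicate 2 and wild-type replicate 2 were the extremes, and the groups did not overlap. The log2 fold change was 1.29 ± 0.19, or 2.45-fold; over the fits without 1 library it ran from 1.04 without wild-type replicate 2 to 1.52 without wild-type replicate 1.

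MSC1 (YML128C, chromosome XIII, 15135 to 16676), named for a mutant with altered meiotic recombination between sister chromatids, went against the description of a group that rises together. It was counted 200 and 174 times in the deletion libraries and 111 and 129 times in the wild-type libraries. In CPM these were 46.5 and 65.0 in the deletion, against 54.8 and 46.4 in wild type. Deletion replicate 1 and wild-type replicate 2 were alike, deletion replicate 2 was the highest library, and the groups overlapped. The log2 fold change was 0.12 ± 0.16, and leaving out deletion replicate 1 gave 0.37, while leaving out deletion replicate 2 gave -0.11. In the authors' deposited normalized values, in reads per kb per 1e6 reads of the authors' total, MSC1 was at 4.37 and 5.48 in the deletion and at 4.36 and 4.56 in wild type, which also overlap.

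**Figure D2:**
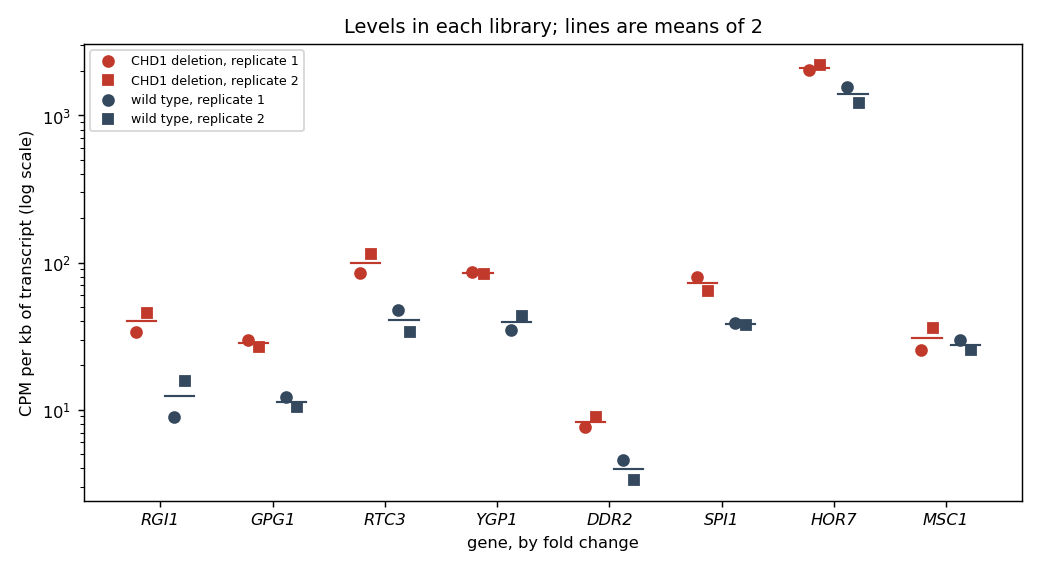
Level of each gene in every library as CPM per kb of transcript on a log axis, CHD1 deletion in red left of wild type in blue, circles for replicate 1, squares for replicate 2 and lines for the mean of 2. The deletion points lie above the wild-type points for every gene except MSC1, and HOR7 stands far above the rest.

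Of the 8 genes, 7 had both deletion libraries above both wild-type libraries, an order that 24.9% of all genes tested showed, and 6 were called higher, against 1.68% of all genes; since the genes were picked from this contrast, nothing is read from either count. DDR2 and MSC1 were the pair not called. The number called was 5 with the authors' library constants, 5 without deletion replicate 1, 4 of the 5 left by the filter at 50 reads, and 2 with DESeq2, which gave an adjusted p for 2 of the 8. The median log2 fold change of the 8 was 1.08, with a range from 0.12 to 1.59. DDR2 is among them although it passed the filter for the test only through the deletion libraries.

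**Figure D3:**
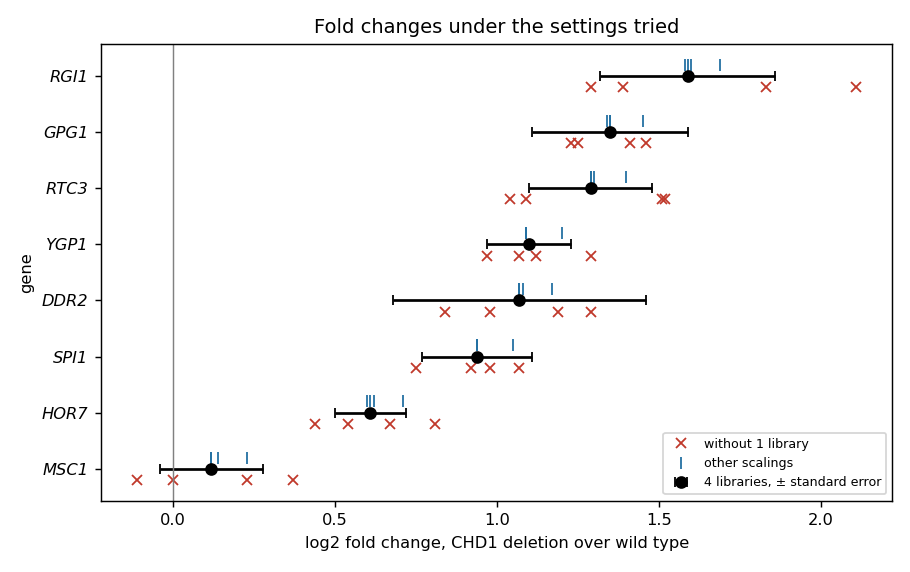
Log2 fold change of each gene, CHD1 deletion over wild type, with all 4 libraries (black, ± standard error), without 1 library at a time (red crosses) and with other scalings (blue ticks). RGI1 spreads from 1.29 to 2.11 and MSC1 lies on both sides of 0, from -0.11 to 0.37.

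The order of levels was HOR7, RTC3, YGP1, SPI1, RGI1, MSC1, GPG1 and DDR2 in the deletion libraries, with means of 2117, 99.2, 84.9, 72.2, 39.8, 30.6, 28.3 and 8.28 CPM per kb. RTC3 overlapped YGP1, RGI1 overlapped MSC1 and MSC1 overlapped GPG1; the other neighbours in this order were apart. In wild type the order was HOR7, RTC3, YGP1, SPI1, MSC1, RGI1, GPG1 and DDR2, with means of 1393, 40.6, 39.4, 38.2, 27.7, 12.4, 11.3 and 3.94 CPM per kb. There RTC3, YGP1 and SPI1 could not be ordered beyond their spread, nor could RGI1 and GPG1. HOR7 alone held 76.4% and 76.5% of the reads of the 8 genes in the deletion libraries and 82.0% and 78.3% in the wild-type libraries. The other 7 genes summed to 314 and 342 CPM in the deletion, against 173 and 169 CPM in wild type.

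The order of the 2 replicates within a genotype was not the same for all 8 genes. Deletion replicate 2 exceeded replicate 1 in CPM for RGI1, RTC3, HOR7, MSC1 and DDR2, and replicate 1 exceeded replicate 2 for GPG1, YGP1 and SPI1. In wild type, replicate 1 exceeded replicate 2 for 6 of the 8, the exceptions being RGI1 and YGP1. Some of these differences were small or rest on few reads. YGP1 was at 115 and 112 CPM in the deletion, and DDR2 had 7 reads in each wild-type library. Whether the genes move together within a genotype was not tested. After each gene was centred on its mean log2 CPM over the 4 libraries (prior count 2), the mean profile was 0.42 and 0.56 in deletion replicates 1 and 2 and -0.45 and -0.53 in wild-type replicates 1 and 2. DDR2 lay closest to this mean, with a root mean square difference of 0.106, and RGI1 (0.454) and MSC1 (0.447) farthest. RGI1 departed by its low value of -1.20 in wild-type replicate 1, and MSC1 by its flat profile.

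**Figure D4:**
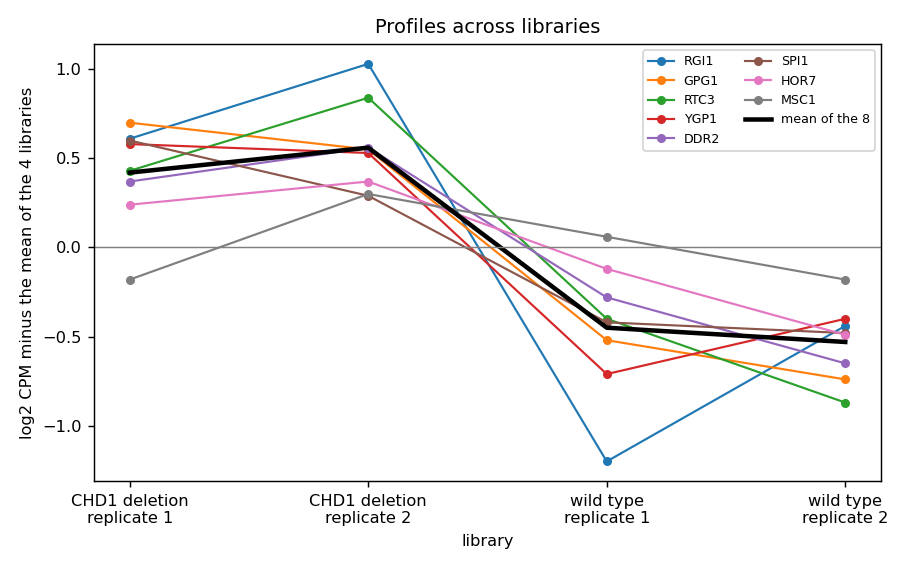
Log2 CPM of each gene minus its mean over the 4 libraries, by library, with the mean of the 8 genes in black; lines join the values of 1 gene and carry no order in time. RGI1 drops lowest, to -1.20 in wild-type replicate 1, while MSC1 stays between -0.18 and 0.30.

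The 6 other genes whose profiles over the 4 libraries were nearest to the mean of the 8 were MATALPHA1, YER053C-A, HXT7, HXT6, YGR201C and HXT4, with root mean square differences from 0.0125 to 0.0790 on the log2 scale. With a prior count of 0.5, 5 of the 6 were again among the nearest. HXT7 and HXT6, near-identical high-affinity hexose transporter genes that may share reads, had 333 and 422 CPM and 311 and 396 CPM in the deletion, against 196 and 183 CPM and 183 and 172 CPM in wild type. Since a gene near a mean that is high in the deletion and low in wild type must itself be higher in the deletion, these differences are a description, without a test. Log2 fold changes were 0.99 ± 0.12 for HXT7 and for HXT6, 0.90 for HXT4, another transporter gene of the family, and 1.11 for YGR201C. Reads counted for MATALPHA1 were at 9.54 and 10.5 CPM in the deletion and at 4.93 and 4.68 CPM in wild type. This gene shares its sequence with the silent copy at HML, and the background is known as mating type a. The reads therefore need not come from the mating-type locus, and where they arose was not tested.

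Of 16 genes flanking the 8 on the chromosome, 14 were counted well enough to test, and 0 were called higher or lower by edgeR, with 1 at an unadjusted p under 0.05 and 0 called by DESeq2. That 0 may cover flanking genes that DESeq2 did not judge, as it gave no adjusted p for 3298 genes. By edgeR, 1.68% of all genes were called higher and 3.06% lower, so 0 of 14 says little about the flanking genes. The log2 fold changes of the 14 ran from -0.42 to 0.48 with a median of 0.10. No annotated reference gene overlaps the coding span of any of the 8. The transcript length in the tables for DDR2 is 757 bases against a coding span of 186. The 571 bases outside that span compare with gaps of 690 and 297 bases to the coding spans of the upstream gene SPE2 and the downstream gene AIM39, and whether counting used strand is not stated.

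The regulators named above were read from the same fit. HAP4, which encodes the limiting activator subunit of the Hap complex, was at 88.9 and 80.3 CPM in the deletion, against 57.7 and 57.2 CPM in wild type, and rose by 0.57 ± 0.13 (edgeR adjusted p = 0.0149). Its adjusted p was 0.177 without deletion replicate 1, 0.0608 with DESeq2 and 0.455 with the authors' library constants. MSN2 had a log2 fold change of 0.21 ± 0.16 (edgeR adjusted p = 0.496), MSN4 one of -0.05 ± 0.18 (edgeR adjusted p = 0.917), RIM15 one of 0.34 ± 0.14 (edgeR adjusted p = 0.171) and GIS1 one of -0.58 ± 0.23 (edgeR adjusted p = 0.157). For GIS1 the deletion values of 11.6 and 17.2 CPM lay below the wild-type values of 21.7 and 20.1 CPM.

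Among other genes of general stress driven by Msn2 and Msn4, with the 8 left out, 7 of 42 rose (16.7%, against 1.68% of all genes), 1 fell and 34 did not pass; the list's median log2 fold change was 0.24. This list and those below were written with earlier results of these data known, so their shares are a description and no independent support. HSP12, a membrane-stabilising stress protein gene, had 49.1 and 44.5 CPM in the deletion, against 8.39 and 10.8 CPM in wild type, and rose by 2.27 ± 0.20 (edgeR adjusted p = 6.93e-07). HSP26, which encodes a small heat shock protein, rose by 1.67 (edgeR adjusted p = 0.00067), the glycogen phosphorylase gene GPH1 by 1.28 (edgeR adjusted p = 0.000176) and the hexokinase gene HXK1 by 1.23 (edgeR adjusted p = 0.000798). DDR48, a stress protein gene, was the 1 that fell, by 0.63 on the log2 scale (edgeR adjusted p = 0.00106); it was named after its values were seen. With the authors' library constants it lost its call (adjusted p = 0.248), and the number lower was 2 without wild-type replicate 1 and with the replicate block. The number higher was 12 without wild-type replicate 1 and with the replicate block, 11 with total gene reads, 5 with the authors' library constants and without deletion replicate 2, and 4 with DESeq2. The median was 0.03 without deletion replicate 2. Since DESeq2 gave no adjusted p for 3298 genes, a gene it left uncalled, here or in the lists below, may not have been judged.

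The list of starvation and stationary phase, such as the SPG and SNZ genes, held 31 genes, of which 20 were counted well enough to test. Of those 20, 0 passed in edgeR, upward or downward, 4 had an unadjusted p under 0.05, and the median was 0.21. Over all genes 1.68% were higher and 3.06% lower, so 0 of 20 says little about the list. DESeq2 called 0 of this list, and edgeR called 1 higher without wild-type replicate 1. Of 26 genes for growth on non-fermentable carbon, 1 rose and 1 fell (3.85% each), 24 did not pass, and the median was 0.08. CAT2, which encodes carnitine acetyltransferase, rose by 1.82 ± 0.41 (edgeR adjusted p = 0.0150) on 34 and 18 reads in the deletion, against 5 in each wild-type library. With so few wild-type reads, CAT2 passed the filter (min.count 10) only through the deletion libraries, so its rise is given as a description. MDH2, the cytosolic malate dehydrogenase gene, fell by 0.40 on the log2 scale (edgeR adjusted p = 0.0460). CAT2 lost its call when wild-type replicate 2 was omitted (adjusted p = 0.102) and when deletion replicate 1 was (adjusted p = 0.157). MDH2 kept it among the left-out fits when wild-type replicate 1 was the library omitted, and lost it in the other 3, with DESeq2, with total gene reads, with the authors' library constants and with the filter at 50 reads.

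Of 41 genes of the respiratory chain and its Hap activator, 3 rose (7.32%), 1 fell (2.44%) and 37 did not pass, with a median of 0.15. The shares over all genes were 1.68% higher and 3.06% lower. The risers were COX5B, a cytochrome oxidase subunit gene favoured at low oxygen (0.89 ± 0.19, edgeR adjusted p = 0.00962), QCR8 of the cytochrome bc1 complex (0.62 ± 0.16, edgeR adjusted p = 0.0344) and HAP4. HAP4 was judged by DESeq2 (adjusted p = 0.0608). DESeq2 gave no adjusted p for 3298 genes of the whole table, so a riser that it did not call may not have been judged. NDE1, an external NADH dehydrogenase gene, fell by 0.53 on the log2 scale (edgeR adjusted p = 0.0137). The number higher was 1 without deletion replicate 1 and likewise without replicate 2, 5 without wild-type replicate 1, 1 with the authors' library constants and 0 with DESeq2. COX5B lost its call when deletion replicate 2 was omitted (adjusted p = 0.0747), and QCR8 when any library other than wild-type replicate 1 was. NDE1 lost its call with total gene reads, with the authors' library constants and when deletion replicate 2 was omitted.

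Of 33 other cell-wall protein genes, 2 rose and 2 fell (6.06% each), 29 stayed short of the threshold, and the median was -0.13. Among all genes tested, 1.68% were higher and 3.06% lower. CWP1 (0.88 ± 0.14, edgeR adjusted p = 0.000679) and TIP1 (0.82 ± 0.11, edgeR adjusted p = 9.34e-05), which encode mannoproteins of the wall, rose. TIP1 had 218 and 206 CPM in the deletion, against 117 and 123 CPM in wild type. The wall-remodelling genes SCW4 and BGL2 fell by 0.52 and 0.40 on the log2 scale (edgeR adjusted p = 0.0437 and 0.0222); 0 wall genes were called lower with total gene reads, with the authors' library constants or without deletion replicate 2, and 6 without wild-type replicate 1. Leaving out deletion replicate 1 ended the call of BGL2. SCW4 had a log2 fold change of -0.14 without wild-type replicate 2, which ended its call (adjusted p = 0.443), and -0.80 without wild-type replicate 1; its call was also lost with the filter at 50 reads (adjusted p = 0.0611) and with DESeq2 (adjusted p = 0.43).

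Of 26 genes of the glucose-sensing G protein and protein kinase A, the pathway in which GPG1 was placed, 0 passed in edgeR and 0 in DESeq2, and edgeR called 1 higher without wild-type replicate 1. The unadjusted p was under 0.05 for 2 of them, and the list median was -0.02. With 1.68% of all genes higher and 3.06% lower, 0 of 26 says little about the list. Of 26 genes of hyperosmotic stress, 3 rose (11.5%, against 1.68% of all genes), 2 fell (7.69%, against 3.06%) and 21 did not pass, with a median of 0.02. The 3 were HSP12 and the phosphoglucomutase gene PGM2 (0.78, edgeR adjusted p = 0.00345), which the general stress list also holds, and the glycerol-3-phosphatase gene HOR2 (0.69, edgeR adjusted p = 0.00262). With the authors' library constants PGM2 (adjusted p = 0.0827) and HOR2 (adjusted p = 0.184) lost their calls, which left 1 higher. GRE2, a methylglyoxal reductase gene, fell by 0.61 on the log2 scale (edgeR adjusted p = 0.00851), as did RHR2, a close paralog of HOR2 that may share reads with it, by 0.34 (edgeR adjusted p = 0.0432); RHR2 was named after its values were seen. The number lower was 0 without deletion replicate 1 and with the authors' library constants, and 1 with total gene reads, with the filter at 50 reads and without deletion replicate 2.

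**Figure D5:**
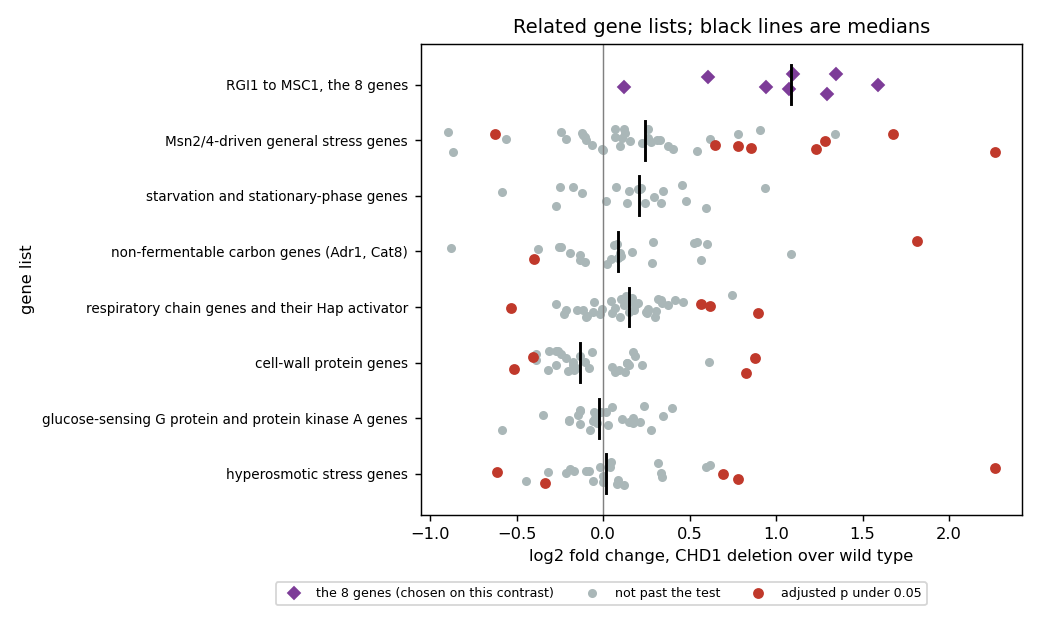
Log2 fold changes, CHD1 deletion over wild type, of the 8 genes (purple, chosen on this contrast) and of the tested genes of 7 related lists, red where the adjusted p was under 0.05 and grey otherwise, with list medians as black lines. The median is 0.24 for general stress genes and between -0.13 and 0.21 for the other lists.

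Genes with more matches of CCCCT in the 250 bases before the start were described in the same fit, with the 8 left out. Of 117 genes with 2 or more matches, 4 were called higher (3.42%), against 17 of 906 with 1 match (1.88%) and 64 of 4447 with none (1.44%). The number called lower was also 4 of the 117 (3.42%), against 30 of 906 (3.31%) and 134 of 4447 (3.01%). The median log2 fold change was 0.021 with 2 or more matches. It was 0.004 over the 5470 tested genes outside the 8 whose upstream bases were read. In the 500-base window, 16 of 438 genes with 2 or more matches were called higher (3.65%). The share was 1.34% of genes with 1 match, 1.38% with none and 1.55% of the 5470. Of the same 438 genes, 11 were called lower (2.51%), against 3.07% of the 5470.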

How the data were processed

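Per the submitters' processing notes, reads were handled with CASAVA 1.8 and TopHat on sacCer3. The TopHat version, counting program, annotation and strand setting: not given in the sources used here. Libraries were made with a kit for small RNA, per the labels' protocols. Per the file headers, each deposited gene table lists a count of reads and a transcript length for 5816 genes, and a normalized column that equals count over length over 1 constant per library (25.107 and 17.426 in the deletion, 13.976 and 15.533 in wild type, in 1e6 reads). Of the identifiers, 5813 matched the R64 annotation. The intron tables were not used: 0 of 793 features lie in the 8 genes.

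Counts were fitted with edgeR 4.0.16 (R 4.3.3; quasi-likelihood, TMM, genotype alone in the model, filterByExpr with min.count 10), with Benjamini-Hochberg adjustment at 0.05. All 8 genes passed the filter, but DDR2, with 7 reads in each wild-type library, did so only through the deletion libraries. DESeq2 1.42.0 was an alternative. TMM factors were 1.04 and 1.03 in the deletion and 0.945 and 0.984 in wild type. The edgeR step was tested on simulated data. Replicates differed beyond sampling noise (chi-square per degree of freedom 2.50 in the deletion and 6.17 in wild type). The 7 genes overlapping ribosomal RNA genes held 430914 and 300895 reads in the deletion and 207409 and 218941 in wild type. Coding sequences were aligned with Biopython 1.88.

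The 8 genes, the lists and the alternatives were chosen with earlier results of these data known. Named are the 8, 3 paralogs, at most 4 called genes per list by size of change, called flanking genes, the 6 nearest profiles, CHD1 and 5 regulators. SDC25 was not matched to the gene tables.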

Additional observations from a re-analysis of the deposited data

How the results depend on the processing

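The numbers of genes higher and lower were 92 and 168, and they became 176 and 65 with total gene reads, 34 and 28 with the authors' library constants (an alternative added after seeing the data), 165 and 259 with the replicate block, and 29 higher with DESeq2, which gave no adjusted p for 3298 genes, 6 of the 8 among them. Without 1 library the number higher ran from 58 to 213 and the number lower from 70 to 364; in these fits the lone sample of a genotype is assumed to vary like the other pair. The causes were not tested. The median log2 fold change of the 8 stayed between 0.98 and 1.19 in every alternative run, with 5 of the 8 left where at least 50 reads were asked of every library. Replicate numbers are shared across genotypes by number only: deviations of same-numbered libraries correlated at 0.0141 over genes, so the block is no pairing. The share of genes called higher with 2 or more CCCCT was 2.55% in the window that adds 50 bases after the start. The lowest counts per library were 7 reads for DDR2, 12 for RGI1 and 18 for GPG1, which limits the precision of their levels.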
